A study of Mus musculus with 4 samples.

Results

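The genes of the Wnt pathway described here are the Wnt ligands, the Frizzled, Lgr and Lrp receptors, the secreted antagonists and R-spondins, and the intracellular members from beta-catenin to the TCF/LEF factors. They were chosen by gene symbol, with earlier results of these data known. They comprise 56 of the 18193 genes with a probe set of their own on the array. These are 19 ligands, 15 receptors, 14 secreted antagonists and agonists, and 8 intracellular members. Tcf7, the remaining gene of the chosen set, was not analysed here.

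Wnt proteins are secreted lipid-modified ligands that bind Frizzled receptors and the co-receptors Lrp5 and Lrp6. In the canonical branch, receptor binding stops the Axin and Apc complex from marking beta-catenin for destruction, and beta-catenin then acts with TCF/LEF factors on transcription. In skeletal muscle, Wnt signals act on the determination of myogenic cells in the embryo and on satellite cells and their differentiation in the adult.

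RNA was measured on 4 arrays of C2C12 cells, an immortalised mouse myoblast line that fuses into myotubes when serum is lowered. The shLSD1 group (2 arrays) carried a stably selected plasmid with a short hairpin RNA against LSD1, the histone demethylase encoded by Kdm1a. The shControl group (2 arrays) carried a plasmid with a non-targeting hairpin. Both groups were grown in 10% fetal bovine serum, 25 mM glucose and 750 µg/mL hygromycin B, were switched to 2% horse serum, and were harvested 48 hours later. The labels describe 1 stable selection per hairpin and do not say that the arrays came from separate cultures, so each p-value rests on a spread that may be technical, and the hairpin cannot be told apart from the selection.

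Kdm1a signals were 922 and 1034 in shLSD1 cells, against 4603 and 4588 in shControl cells (21.3% of control; log2 fold change -2.23, SE 0.07, limma adjusted p = 2.89e-05). All 8 skeletal muscle markers examined were above the signal filter. Of these, 5 fell in shLSD1 cells (Myog, Myh3, Acta1, Ckm and Tnnt3) and 1 rose (Myf5), and their summed signal was 83561 and 91714 in shLSD1 cells against 120809 and 119186 in shControl cells. Of 4 tested fibroblast markers 3 fell (Dcn, Lum and Col1a1), with summed signals of 7785 and 6170 over the 5 measured in shLSD1 cells and 9263 and 9107 in shControl cells. Of 4 epithelial markers Cdh1 rose, with sums of 271 and 284 in shLSD1 cells and 161 and 169 in shControl cells, and the defining marker Epcam lay between 3.16 and 7.19 on every array. Lum passed the filter through its shControl signals only, and Cdh1 through its shLSD1 signals only. All 3 endothelial markers, 3 of 4 macrophage markers and 2 of 3 measured adipocyte markers were below the filter. The part of these marker changes in the results below was not tested, and in bulk RNA fewer cells of a type and less RNA per cell cannot be told apart.

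The Wnt genes that changed went in both directions. In shLSD1 cells the ligand gene Wnt4 rose 2.74-fold, and Nkd2, an intracellular inhibitor gene, rose 2.44-fold. The secreted antagonist gene Sfrp2 fell to 19.9% of control, and Dkk3, a secreted Dickkopf family gene, to 41.9%. The receptor genes Fzd9 and Fzd2 fell, Fzd6 rose, and Tcf7l2, a TCF/LEF factor gene, fell. Signals are MAS5 intensities on a linear scale, and a gene was tested when the mean of its log2 signals over the 4 arrays was above 6.03, a signal of 65.4. Of the 56 members 30 passed, of which 3 rose and 5 fell at a limma adjusted p under 0.05. These 8 are 26.7% of the tested members, beside 15.8% of all 10879 tested genes. Rises made up 8.75% and falls 7.09% of all tested genes. The median log2 fold change of the tested members was -0.10, with 19 below 0 and 11 above, against 0.00 for all genes. The arrays of the groups did not overlap for 19 members (63.3%), beside 60.1% of all tested genes. Fzd9, Sfrp2 and Nkd2 passed the filter through the signals of 1 group only. For that reason the counts and the median over tested members describe those members and support nothing further.

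**Figure D1:**
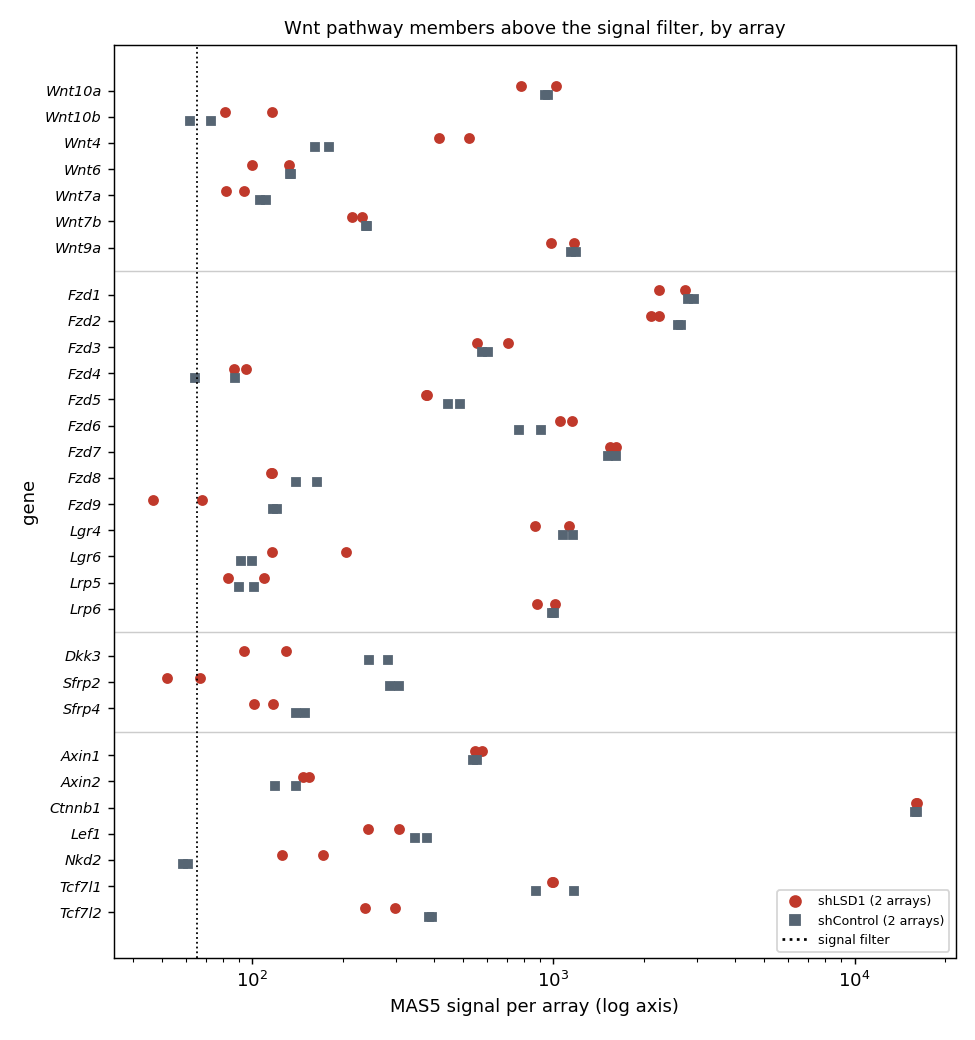
MAS5 signal (log axis) of the 30 tested Wnt pathway genes on each array, with shLSD1 arrays as red circles and shControl arrays as grey squares; from top to bottom the blocks are ligands, receptors, secreted antagonists and intracellular members, and the dotted line is the signal filter of 65.4. Wnt4 and Nkd2 lie to the right in both shLSD1 arrays, Sfrp2, Dkk3 and Fzd9 lie to the left, and Ctnnb1 signals lie on top of each other.

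Promoter windows from RefSeq are given for 3 of the members that moved most, Wnt4, Nkd2 and Sfrp2. The windows cover 250 bases before to 50 after an annotated start on build GRCm38.p6. They are printed to show CpG content, which was higher in the Wnt4 window than in those of Nkd2 and Sfrp2. Capitals mark CpG dinucleotides, the letters CG, which read the same on both strands.
Wnt4 (chr4:137277385-137277684, plus strand): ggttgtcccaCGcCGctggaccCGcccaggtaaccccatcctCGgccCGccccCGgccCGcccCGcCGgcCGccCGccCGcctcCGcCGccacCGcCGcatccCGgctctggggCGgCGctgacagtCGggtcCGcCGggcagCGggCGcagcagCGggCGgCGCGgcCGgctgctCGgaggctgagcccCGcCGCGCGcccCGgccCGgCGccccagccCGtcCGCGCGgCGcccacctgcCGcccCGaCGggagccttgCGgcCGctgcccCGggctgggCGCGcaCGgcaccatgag
Nkd2 (chr13:73847582-73847881, minus strand): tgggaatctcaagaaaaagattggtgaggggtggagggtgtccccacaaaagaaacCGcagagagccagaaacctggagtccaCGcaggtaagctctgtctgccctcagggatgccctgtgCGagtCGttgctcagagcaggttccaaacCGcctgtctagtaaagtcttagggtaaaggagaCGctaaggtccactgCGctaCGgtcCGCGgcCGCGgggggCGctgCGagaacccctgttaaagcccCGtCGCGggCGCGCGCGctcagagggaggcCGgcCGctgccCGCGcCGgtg
Sfrp2 (chr3:83766071-83766370, plus strand): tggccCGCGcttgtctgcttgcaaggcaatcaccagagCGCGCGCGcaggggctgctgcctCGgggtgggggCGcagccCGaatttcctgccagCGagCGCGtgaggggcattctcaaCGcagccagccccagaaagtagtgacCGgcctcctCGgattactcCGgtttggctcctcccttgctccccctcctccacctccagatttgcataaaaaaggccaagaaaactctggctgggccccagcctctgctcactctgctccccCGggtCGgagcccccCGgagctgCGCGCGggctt

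The Wnt4 window held 51 CpGs and was 84.3% G or C. The Nkd2 window held 26 CpGs at 63% G or C, and the Sfrp2 window 22 CpGs at 66%. Wnt4 was not alone among the called members, since the Fzd9 window, not printed, held 53 CpGs at 78%. Windows of called members had a median of 30 CpGs (7 to 53), and those of all members 25.5 (4 to 58). The 11345 windows of tested genes had a median of 21 CpGs and 61% G or C, and 99.4% of them held at least 1 CpG, beside a median of 7 CpGs and 94.6% for all windows. Windows were found for 5 of the 8 called members, and 38 of the 56 members had 46 windows in all. The TCF/LEF core was searched on both strands in several spellings. One was CTTTGAA, another was CTTTGAT, the third was CTTTGTA and the last was CTTTGTT. Of the E-box spellings only CAGCTG was searched, which reads the same on both strands and overlaps none of the cores. The core was in 1 of the 6 windows of called members, the second of the Tcf7l2 windows. There it begins at position -14 from the start site. CAGCTG was in 0 of the 6, which leaves out windows with an E-box of another spelling. The core was in 7 of the 46 windows of members, tested or not (15.2%), beside 16.9% of all 32851 windows and 11.1% of windows of tested genes. CAGCTG was in 6 of 46 (13%), beside 16.3% of all windows and 15.5% of windows of tested genes. A match is a description of letters and says nothing of factor binding.

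Of the 19 Wnt ligand genes, 7 passed the signal filter, and 1 of these changed (14.3%, near the 15.8% of all tested genes). Wnt4, a ligand gene needed in the mouse for kidney tubules and the female reproductive tract, had signals of 416 and 526 in shLSD1 cells, against 180 and 162 in shControl cells. Both shLSD1 arrays were above both shControl arrays, with means of 471 ± 77.6 in shLSD1 cells and 171 ± 13 in shControl cells (SD, n = 2 each). The log2 fold change was 1.45 (SE 0.16, limma adjusted p = 1.23e-03). A second Wnt4 probe set gave 135 and 212 in shLSD1 cells, against 44.6 and 24 in shControl cells. It rose too (log2 fold change 2.37, SE 0.38, limma adjusted p = 7.03e-03 over every probe set above the filter). The rise of Wnt4 held under all 13 alternative settings that could be run for it.

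The other 6 tested ligand genes did not pass the test. Wnt10b, a ligand gene known for holding back fat cell formation, had 81.2 and 116 in shLSD1 cells against 72.7 and 62.3 in shControl cells. Its groups did not overlap, but its interval was wide (log2 fold change 0.53, 95% interval -0.16 to 1.22, limma adjusted p = 0.275). Wnt7a, which in muscle acts on satellite cells through Fzd7, had 93.5 and 81.5 in shLSD1 cells against 111 and 106 in shControl cells (-0.31, interval -0.87 to 0.24, limma adjusted p = 0.425). Its other probe sets were all below the filter, and the sign turned (0.31) once its probe sets were averaged.

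Wnt9a and Wnt10a, ligand genes known from joint and from tooth and skin development, had overlapping groups. Wnt9a had 979 and 1170 in shLSD1 cells against 1147 and 1186 in shControl cells, and its log2 fold change was -0.12 with an interval of -0.35 to 0.10. Wnt10a had 1020 and 779 in shLSD1 cells against 939 and 961 in shControl cells, with -0.09 and an interval of -0.38 to 0.20. The arrays leave room for changes of that size in these 2 genes. Wnt7b, a ligand gene of lung development, measured -0.10 (interval -0.43 to 0.23) and Wnt6, first known from the ectoderm over the somites, -0.21 (interval -0.74 to 0.31). Wnt6 and Wnt10a are neighbouring genes and both passed the filter. Wnt9b and Wnt3 are neighbours and neither passed. The neighbours Wnt3a and Wnt9a, and likewise Wnt10b and Wnt1, were split, with Wnt9a and Wnt10b above the filter.

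Among the 13 tested receptor genes, 2 fell and 1 rose, all of them Frizzled genes. The 3 called are 23.1% of the tested receptor genes and 33.3% of the 9 tested Frizzled genes, beside 15.8% of all tested genes. Fzd9, among these 3, passed the filter through its shControl signals only, so these shares support nothing further. Fzd2 had 2114 and 2233 in shLSD1 cells, against 2656 and 2590 in shControl cells. The groups did not overlap, and the difference was small: the shLSD1 mean was 82.8% of control (log2 fold change -0.27, SE 0.06, limma adjusted p = 0.0195). One further probe set gave -0.23 and another 0.09, and Fzd2 averaged over its probe sets measured -0.14 and was not called (limma adjusted p = 0.209). Leaving out either shControl array (limma adjusted p = 0.162 and 0.114) or the intensity trend (0.106) also ended the call.

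Fzd6, a receptor gene that orients hairs in mouse skin through planar polarity, went the other way. Its signals were 1047 and 1154 in shLSD1 cells and 907 and 768 in shControl cells. Both shLSD1 arrays were above both shControl arrays (log2 fold change 0.40, SE 0.10, limma adjusted p = 0.0367), and its other probe sets gave 0.56 and 0.87. The call was lost in 6 of 14 alternatives, among them without shLSD1 replicate 2 (limma adjusted p = 0.0789), without shControl replicate 1 (0.0541) or 2 (0.217), unfiltered (0.0659), with no trend (0.128) and averaged over probe sets (0.61, 0.153).

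Fzd9, a receptor gene with roles in mouse bone and hippocampus, fell to 47.4% of control. It had 46.6 and 68.2 in shLSD1 cells, against 117 and 121 in shControl cells on its sole probe set. Only the shControl arrays were well over the filter, and the log2 fold change was -1.08 (SE 0.29, limma adjusted p = 0.0462). This call was lost in 6 of 13 alternatives: without shLSD1 replicate 1 (-0.80, limma adjusted p = 0.102), without either shControl array (0.199 and 0.203), unfiltered (0.109), with no trend (0.064) and where other genes were averaged over probe sets (0.0743).

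The other Frizzled genes did not pass. Fzd7, the receptor that carries the Wnt7a signal in satellite cells, had nearly equal signals, 1616 and 1535 in shLSD1 cells and 1616 and 1522 in shControl cells. Its log2 fold change was 0.01 with an interval of -0.15 to 0.16. Fzd1 had 2726 and 2240 in shLSD1 cells and 2935 and 2806 in shControl cells (-0.22, limma adjusted p = 0.157). Fzd5, a receptor gene of the developing eye, had 378 and 381 in shLSD1 cells and 491 and 447 in shControl cells (-0.30, limma adjusted p = 0.102). These 2 genes were lower on both shLSD1 arrays, with an unadjusted p under 0.05 that did not survive adjustment. Fzd1 passed without shLSD1 replicate 1 (-0.36, limma adjusted p = 4.63e-03) and measured -0.07 without shLSD1 replicate 2 (0.444), so its value rests on which shLSD1 array is kept. Fzd8 measured -0.39 (interval -0.86 to 0.08) on its brightest probe set, and passed when averaged with its other probe set, which was below the filter at -2.99 (-1.69, limma adjusted p = 0.0384). Fzd3, which guides axons, measured 0.08 (interval -0.21 to 0.37), and its other probe sets above the filter gave 0.33, 0.19 and -0.24. The log2 fold change of Fzd4, the receptor of Norrin in retinal vessels, was 0.28 (interval -0.38 to 0.93).

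No co-receptor or R-spondin receptor gene above the filter was called. Lrp6 had 882 and 1010 in shLSD1 cells and 1004 and 990 in shControl cells (-0.08, interval -0.28 to 0.13, limma adjusted p = 0.595). Lrp5 had 83.3 and 109 in shLSD1 cells and 90.2 and 101 in shControl cells, a log2 fold change of -0.01 with a wide interval of -0.61 to 0.59. Lgr4, a receptor gene for R-spondins, had 1124 and 868 in shLSD1 cells and 1163 and 1076 in shControl cells (-0.18, limma adjusted p = 0.367), and it measured -0.37 without shLSD1 replicate 1 (limma adjusted p = 0.0243) and 0.01 without shLSD1 replicate 2 (0.966). Lgr6, another R-spondin receptor gene, had 116 and 205 in shLSD1 cells and 100 and 91.5 in shControl cells. Its groups did not overlap, but the shLSD1 arrays were far apart (0.69, SE 0.29, limma adjusted p = 0.161), and it measured 1.10 without shLSD1 replicate 1 (limma adjusted p = 0.0205) and 0.28 without shLSD1 replicate 2 (0.566). A second Lgr6 probe set gave 136 and 148 in shLSD1 cells and 107 and 97 in shControl cells (0.48, limma adjusted p = 0.186 over every probe set above the filter).

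**Figure D2:**
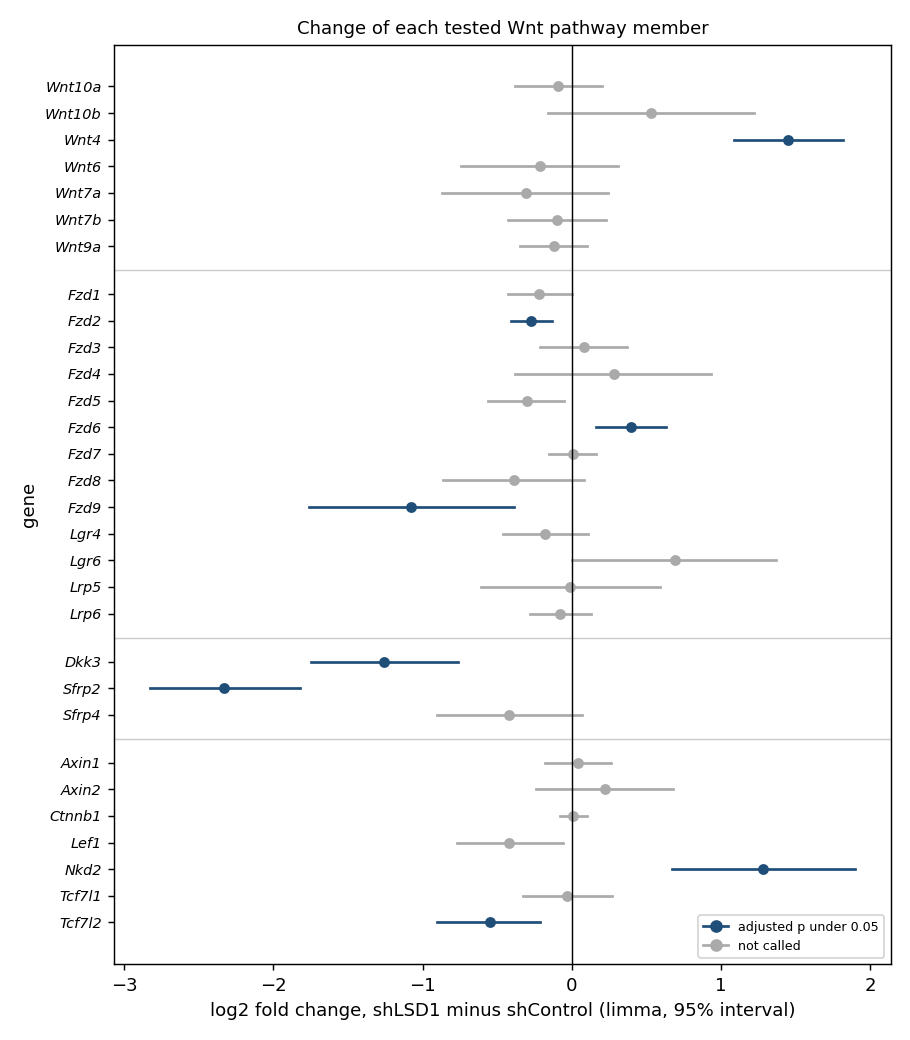
Log2 fold change, shLSD1 minus shControl, of each of the 30 tested Wnt pathway genes with its 95% interval from limma, in the blocks ligands, receptors, secreted antagonists and intracellular members; dark points passed an adjusted p under 0.05. Wnt4, Nkd2 and Fzd6 lie to the right of 0 and Sfrp2, Dkk3, Fzd9, Tcf7l2 and Fzd2 to the left, while the interval of Ctnnb1 runs from -0.08 to 0.10.

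The secreted antagonist genes held the largest fall among the 30 tested members. Sfrp2 encodes a secreted Frizzled-related protein, a soluble protein with a Frizzled-like domain that binds Wnts. It had 66.8 and 52.1 in shLSD1 cells, against 287 and 306 in shControl cells. Both shLSD1 signals were near the filter, and the means were 59.5 ± 10.4 in shLSD1 cells and 296 ± 13.5 in shControl cells (SD, n = 2 each). The log2 fold change was -2.33 (SE 0.22, limma adjusted p = 7.12e-04), a 5.02-fold difference. It held under all 13 alternatives that could be run for it, with values between -2.51 and -1.85. Its shLSD1 signals lie where MAS5 values are noisy, which limits the precision of the fold.

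Dkk3, a divergent member of the Dickkopf family of secreted proteins, fell as well. Its signals were 93.9 and 129 in shLSD1 cells, against 244 and 283 in shControl cells (log2 fold change -1.26, SE 0.21, limma adjusted p = 7.47e-03). The second probe set gave 90.1 and 115 in shLSD1 cells and 177 and 222 in shControl cells (-0.96, SE 0.22, limma adjusted p = 0.0278 over every probe set above the filter). On both probe sets the groups lay apart. The call was lost in 1 of 13 alternatives, without shControl replicate 2 (-1.15, limma adjusted p = 0.0824). Sfrp4, another secreted Frizzled-related gene, had 101 and 117 in shLSD1 cells and 140 and 149 in shControl cells, lower on both shLSD1 arrays but not called (-0.42, SE 0.21, limma adjusted p = 0.225).

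The reading of Sfrp1, a further secreted Frizzled-related gene, depended on the probe set. The brightest probe set not prone to cross-hybridisation was just below the filter, with 62.8 and 53.9 in shLSD1 cells and 71.3 and 56.2 in shControl cells (log2 fold change -0.12). The 4 other Sfrp1 probe sets were all lower in both shLSD1 arrays than in both shControl arrays, with log2 fold changes from -2.74 to -1.42. The brightest of these is of the kind prone to cross-hybridisation and was above the filter, with 29.9 and 64 in shLSD1 cells and 120 and 116 in shControl cells. Its log2 fold change was -1.43 (SE 0.39, limma adjusted p = 0.0507 over every probe set above the filter). Sfrp1 therefore passed no test, and its probe sets disagreed in size.

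**Figure D3:**
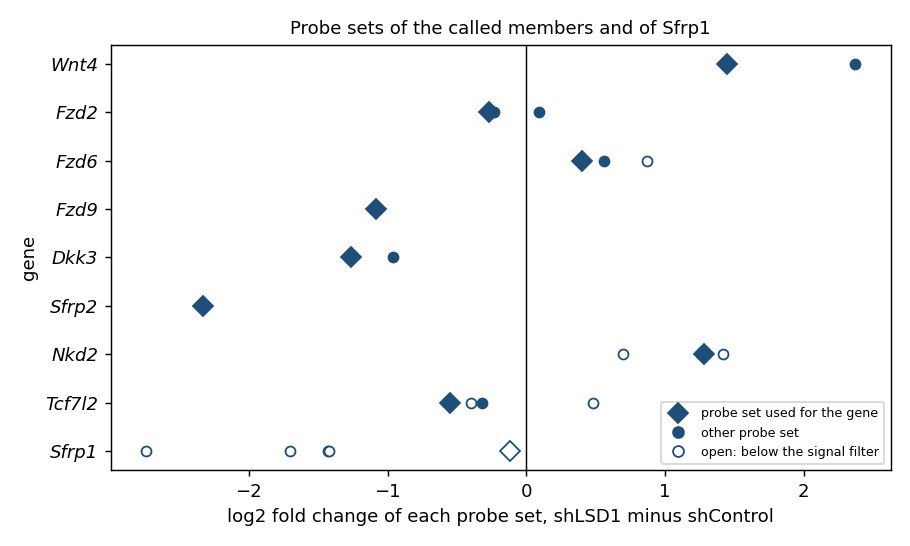
Log2 fold change, shLSD1 minus shControl, of every probe set of the 8 called Wnt pathway genes and of Sfrp1; diamonds are the probe sets used for the gene, circles the others, and open symbols are below the signal filter. The 2 Wnt4 probe sets (1.45 and 2.37) and the 2 Dkk3 probe sets (-1.26 and -0.96) share a sign, Fzd2 and Tcf7l2 each have 1 probe set on the other side of 0, and 4 of the 5 Sfrp1 probe sets lie between -2.74 and -1.42.

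Of the 7 tested intracellular members, Nkd2 rose and Tcf7l2 fell (28.6%, beside 15.8% of all tested genes). Nkd2 passed the filter through its shLSD1 signals only, so this share supports nothing further. Ctnnb1, the beta-catenin gene, had 16144 and 16006 in shLSD1 cells and 15807 and 16064 in shControl cells. The groups overlapped, and the log2 fold change was 0.01 with an interval of -0.08 to 0.10 (limma adjusted p = 0.865). Axin1, the scaffold gene of the destruction complex, measured 0.04 (interval -0.18 to 0.26).

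Nkd2 encodes an inhibitor that binds Dishevelled. It had 171 and 125 in shLSD1 cells, against 59 and 61 in shControl cells (log2 fold change 1.28, SE 0.26, limma adjusted p = 0.016). The shControl signals were just under the filter and both shLSD1 signals were above it. Its 3 other probe sets also measured higher in shLSD1 cells, by 0.70 to 1.42 on the log2 scale. The one above the filter gave 130 and 117 in shLSD1 cells and 49.6 and 53.5 in shControl cells (1.26, limma adjusted p = 0.018 over every probe set above the filter). The call was lost without shLSD1 replicate 1 (1.06, limma adjusted p = 0.0719), without either shControl array (0.0856 and 0.0792) and averaged over probe sets (0.0748).

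Tcf7l2, a TCF/LEF factor gene, had 298 and 236 in shLSD1 cells, against 394 and 385 in shControl cells. Both shLSD1 arrays were below both shControl arrays (log2 fold change -0.55, SE 0.15, limma adjusted p = 0.0421). Its 3 other probe sets gave -0.32, -0.40 and 0.48. The call was lost in 6 of 14 alternatives: without shLSD1 replicate 2 (-0.38, limma adjusted p = 0.092), without either shControl array (0.209 and 0.174), unfiltered (0.081), with no trend (0.0971) and averaged over probe sets (-0.20, 0.724). Lef1 had 242 and 307 in shLSD1 cells and 347 and 381 in shControl cells, lower on both arrays but not called (-0.42, SE 0.15, limma adjusted p = 0.107). It measured -0.59 without shLSD1 replicate 2 (limma adjusted p = 0.0278) and -0.25 without shLSD1 replicate 1 (0.299). Tcf7l1, which mainly represses, had 999 and 987 in shLSD1 cells and 875 and 1169 in shControl cells (-0.03, interval -0.33 to 0.27).

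Axin2, the member most used as a readout of canonical signalling, was not called. It had 147 and 154 in shLSD1 cells and 119 and 140 in shControl cells. Both shLSD1 arrays were above both shControl arrays, but the difference of the means was no larger than the gap between the shControl arrays (0.22, interval -0.24 to 0.68, limma adjusted p = 0.511). A second Axin2 probe set, below the filter, gave 15.4 and 37.9 in shLSD1 cells and 1.4 and 8.46 in shControl cells (2.81, limma adjusted p = 0.256 over every probe set with no filter). Averaged over both probe sets Axin2 measured 1.51 and was not called (limma adjusted p = 0.174). Nkd1, which is used in the same way, was below the filter with 58.9 and 50.2 in shLSD1 cells and 20.2 and 53.9 in shControl cells (0.72). The other Nkd1 probe sets, also below the filter, had the opposite sign, with -0.22, -0.31 and -0.76.

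The remaining 26 members stayed below the filter: 12 ligand, 2 receptor, 11 secreted and 1 intracellular gene. Of these, 23 were under it in both groups, and for Fzd10, Dkk2 and Rspo2 the mean of 1 group was above it. Fitted with no filter, 0 of the 26 had a limma adjusted p under 0.05, and 3 had an unadjusted p under 0.05. Rspo2, an R-spondin gene that in the mouse promotes Wnt signalling in limb and muscle, was one of these, with 24.9 and 15.4 in shLSD1 cells against 77.2 and 70 in shControl cells (log2 fold change -1.91, SE 0.50, limma adjusted p = 0.0736). Lgr5, a stem cell marker of the gut and a receptor gene for R-spondins, had 26.4 and 21 in shLSD1 cells against 74.8 and 54.6 in shControl cells (-1.44, limma adjusted p = 0.141). A second Lgr5 probe set gave 1.30. Wnt5a, the ligand gene best known for non-canonical signalling, had 1.7 and 4.51 in shLSD1 cells against 11.6 and 23.3 in shControl cells (-2.57, limma adjusted p = 0.2). All 3 were lower on both shLSD1 arrays, at signals where MAS5 values are noisy.

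Among the other dim members, Fzd10 had 68.5 and 97.5 in shLSD1 cells and 38.8 and 62.5 in shControl cells (0.73, limma adjusted p = 0.385). A second, dimmer Fzd10 probe set gave -1.77, with signals between 0.912 and 9.17. Dkk2 had 55.5 and 47.9 in shLSD1 cells and 90.1 and 58 in shControl cells (-0.49, limma adjusted p = 0.56). In these 2 genes the groups did not overlap, as in 60.1% of all tested genes. Dkk1, the Dickkopf gene that blocks Lrp5 and Lrp6, had overlapping groups, with 44.1 and 24 in shLSD1 cells and 31.3 and 23.1 in shControl cells. Wnt1, Wnt3, Wnt3a, Wnt8a and Wnt8b, which include the classical canonical ligand genes, and the antagonist genes Wif1 and Frzb were also below the filter, with signals under 65.4 on every array.

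**Figure D4:**
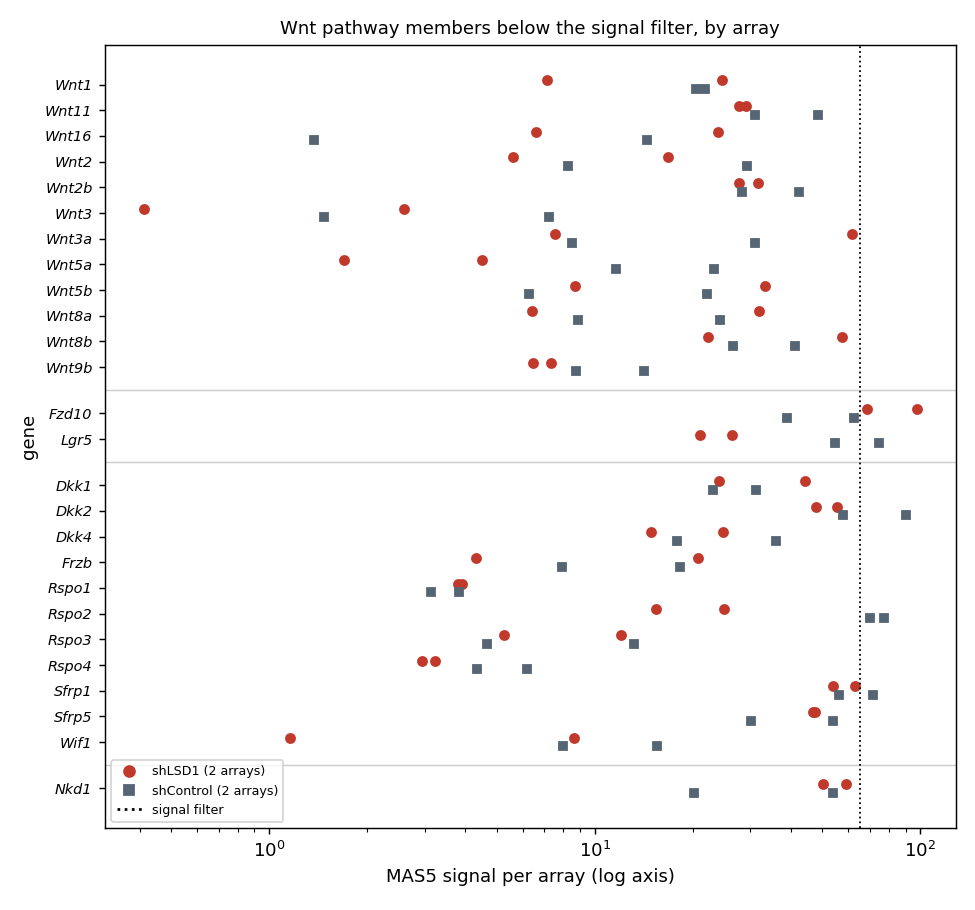
MAS5 signal (log axis) of the 26 Wnt pathway genes below the signal filter on each array, with shLSD1 arrays as red circles and shControl arrays as grey squares, in the blocks ligands, receptors, secreted antagonists and agonists, and intracellular members; the dotted line is the filter of 65.4. Rspo2 and Lgr5 lie to the left in both shLSD1 arrays, and replicates of many genes lie far apart on the log axis.

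The rest of the pathway was examined through a list of 80 genes for Wnt secretion, receptor turnover, beta-catenin destruction, nuclear cofactors and the planar polarity and calcium branches. Of 63 tested, 7 fell and 2 rose (14.3%, near the 15.8% of all tested genes), with a median log2 fold change of 0.03. Porcn, the enzyme gene that attaches the lipid Wnt proteins need for secretion, had 1516 and 1369 in shLSD1 cells against 2087 and 2266 in shControl cells (-0.59, SE 0.08, limma adjusted p = 2.44e-03). Wls, whose product carries Wnts to the cell surface, had 7690 and 7465 in shLSD1 cells and 7017 and 7223 in shControl cells and was not called (0.09, limma adjusted p = 0.231).

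The polarity gene Scrib had 1899 and 2186 in shLSD1 cells against 3441 and 3634 in shControl cells (-0.80, limma adjusted p = 8.31e-04). Camk2a, a calcium-activated kinase gene, fell by 0.74 on the log2 scale, a call that ended once its probe sets were averaged. The falls of Porcn and Scrib held under all 14 alternatives. Ptk7, a co-receptor gene of planar polarity, fell by 0.97, Nfatc1, a calcium-responsive factor gene, by 0.62, Daam2, a formin gene that binds Dishevelled, by 0.41, and Csnk1a1, a kinase gene of the destruction complex, by 0.22. The rises were Tle5 (0.42), of the Groucho family of corepressors, and Daam1 (0.36), another Dishevelled-binding formin gene. The calls of Ptk7, Nfatc1, Daam2, Csnk1a1 and Daam1 were lost when either shControl array was left out, and that of Tle5 when shControl replicate 2 was. None of these 6 was called with no intensity trend. Of the 21 tested genes of the cytoplasmic relay and destruction complex, Csnk1a1 was the single one called (4.76%, beside 15.8% of all tested genes). That share describes the list, which was written with earlier results of these data known.

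A list of genes widely used as targets of beta-catenin and TCF, many of which have other regulators, held 33 genes that are not members and have a probe set. Of the 21 tested, 5 rose and 5 fell (47.6%, beside 15.8% of all tested genes), with a median of 0.03. With the members Axin2 and Lef1 included, neither of them called, 10 of 23 were called (43.5%). The list was written with earlier results of these data known, so these shares describe the list and support nothing further. The direction was split. Ccn4, a matricellular gene first found as a Wnt-induced gene, had 4095 and 3814 in shLSD1 cells against 6351 and 6301 in shControl cells (-0.68, SE 0.05, limma adjusted p = 3.91e-04). Ephb3, an ephrin receptor gene, had 769 and 747 in shLSD1 cells against 1147 and 1214 in shControl cells (-0.64, limma adjusted p = 1.77e-03). Ccn2, Jag1 and Fst were the other genes that fell, by 1.69, 1.19 and 0.48. Fosl1, an AP-1 subunit gene, had 524 and 435 in shLSD1 cells against 246 and 288 in shControl cells (0.84, limma adjusted p = 7.82e-03). Ccnd1 rose by 0.82, Met by 0.58, Jun by 0.39 and the adhesion receptor gene Cd44 by 0.29. The calls of Fosl1, Fst, Jun and Cd44 ended when shControl replicate 1 was left out and when no trend was used, those of Jun and Cd44 also when shControl replicate 2 was left out, and those of Jag1 and Cd44 on averaged probe sets. Znrf3, Notum, Apcdd1 and Rnf43, none of them called, stand in the list of other pathway genes too.

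**Figure D5:**
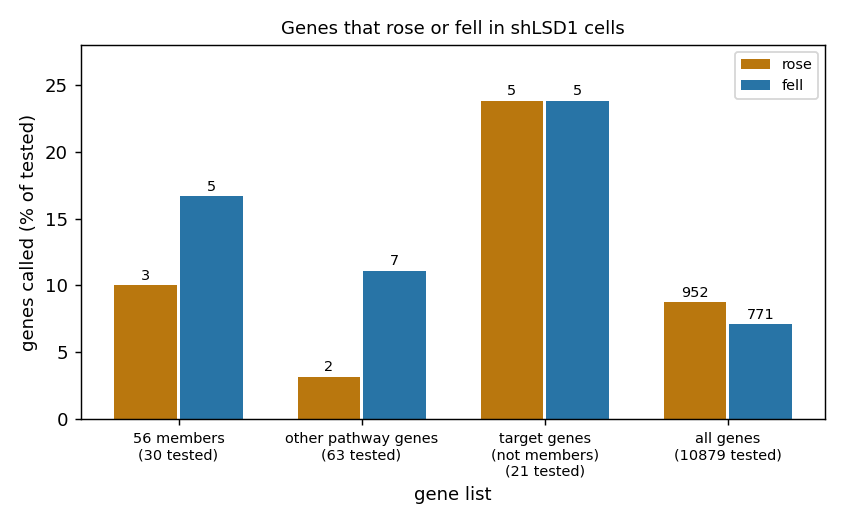
Share of tested genes that rose (left bar) or fell (right bar) in shLSD1 against shControl cells at a limma adjusted p under 0.05, in percent, with the number of genes over each bar, for the Wnt pathway members, the other pathway genes, the target genes that are not members, and all genes. The members stand at 3 and 5 of 30, the other pathway genes at 2 and 7 of 63, and the targets at 5 and 5 of 21.

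Genes next to the called members were also read. Of the 16 protein-coding genes that flank the 8 called members, 12 were tested, and the calls among them were 1 rise and 1 fall (16.7%, near the 15.8% of all tested genes). Trip13, a mitotic checkpoint gene next to Nkd2, had 611 and 625 in shLSD1 cells against 465 and 487 in shControl cells (0.38, limma adjusted p = 0.0327). Slc12a7, a potassium and chloride cotransporter gene on the other side of Nkd2, had 959 and 1060 in shLSD1 cells against 1270 and 1285 in shControl cells (-0.34, limma adjusted p = 0.0232). The neighbours of Wnt4, Zbtb40 and Cdc42, measured 0.19 and -0.07 and were not called, and those of Dkk3, Usp47 and Mical2, measured -0.14 and -0.09.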

How the data were processed

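RNA of 2 shLSD1 and 2 shControl arrays, grouped by their titles, was compared. The deposited values are linear signal intensities of probe sets, which the authors made with MAS5 and Affymetrix Expression Console, per the submitters' processing notes; no version is given in these sources. Each array's mean, trimmed by 2% at both ends, was 500.003, as after scaling of each array to a common target. Low MAS5 signals vary widely once logged.

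Signals under 1 were set to 1 before log2 (505 to 704 of 45101 on each array). By the platform annotation 34945 probe sets have 1 symbol, 932 several and 9160 none, and 64 are controls. Each gene took its brightest single-symbol probe set, avoiding the _x_at type where possible. The filter was the median mean log2 signal, 6.03. Groups were compared with limma 3.58.1 (lmFit, eBayes with an intensity trend; R 4.3.3), two-sided, without covariates, Benjamini-Hochberg adjusted over 10879 genes, threshold 0.05; fold changes are shLSD1 minus shControl. The method was run on simulated arrays drawn independently of each other, which the labels do not settle for the real arrays. There it recovered 67.2% of log2 changes of 0.5 and 98.5% of changes of 1, with 16 false calls among 10679 unchanged genes. The number of arrays limits the precision.

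By rule the text names Kdm1a, all members above the filter, the intracellular members with Lrp5 and Lrp6, and genes of the other lists past the threshold; the dim members, flanking genes and uncalled genes of the other lists given with values were picked after these were seen. The members and lists were chosen with earlier results of these data known. The settings varied were the arrays (each omitted once), the scaling (quantile or median), the log (signal + 32), the filter (none, or log2 8.31), the variance prior (no trend, or robust with statmod 1.5.0), the probe sets (averaged, or all kept), a replicate block, and the threshold (0.01 and 0.1). Symbols were checked against a RefSeq gene table of GRCm38.p6, with 0 updates. That table also gave the order of genes. Figures used matplotlib 3.10.9.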

Additional observations from a re-analysis of the deposited data

How the results depend on the processing

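Wnt4 (1.29 to 1.91), Sfrp2 (-2.51 to -1.85) and Kdm1a (-2.37 to -2.15) kept sign and call wherever they could be run. Counts of targets in this section are over the whole target list, with 23 tested in the main setting. They include the members Axin2 and Lef1, which the 21 targets described above leave out. Of 404 values of tested members under alternatives, 355 kept sign and call, 27 lost the call, 6 gained one and 16 changed sign, with no call before or after for those 16. With 1 array left out, in which case the lone array is assumed to vary like the other group, the 8 called members ranged from 2 to 9, the 1723 called genes from 580 to 2192, ligands 1 to 1, receptors 0 to 5, secreted genes 1 to 2, intracellular members 0 to 2, other pathway genes 3 to 16 and targets 6 to 14. The low ends came without a shControl array: without shControl replicate 1, 3 members and 580 genes were called, and without shControl replicate 2, 2 members and 582 genes.

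Without the intensity trend 637 genes, 4 members, 0 receptors, 1 intracellular member, 3 other pathway genes and 6 targets were called. On averaged probe sets the counts were 894 genes, 4 members (3 of them among the 8, and Fzd8 at -1.69), 1 receptor and 0 intracellular members. With no filter 5 members, 1 receptor and 1 intracellular member were called. With the stricter filter, which left 14 members, of which 2 were ligands and 0 secreted genes, the counts were 3 members, 0 ligands, 0 secreted genes and 1 intracellular member. At a threshold of 0.01 there were 763 genes, 3 members, 0 receptors, 0 intracellular members and 4 other pathway genes, and at 0.1 there were 2596 genes and 16 other pathway genes. In the limma fits that called 0 receptors, 3 to 6 had an unadjusted p under 0.05, and in those that called 0 intracellular members 2 to 3 did; under the stricter filter 0 of 2 ligands did. Beyond the fewer genes or arrays these settings hold by construction, the cause was not tested.

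The signs that changed, on the log2 scale, were those of Wnt10a (0.10) and Lgr4 (0.01) and Fzd3 (-0.09) without shLSD1 replicate 2; Wnt9a (0.00), Fzd7 (-0.03), Lrp5 (0.18) and Lrp6 (0.02) without shLSD1 replicate 1; Fzd7 (-0.04), Lrp5 (0.08) and Tcf7l1 (0.18) without shControl replicate 2; Fzd7 (-0.02) and Ctnnb1 (-0.01) with median centring; and Wnt7a (0.31), Wnt7b (0.30), Fzd4 (-0.07) and Lgr4 (0.65) on averaged probe sets; the other ends of the ranges with 1 array left out were -0.29 for Wnt10a, -0.25 for Wnt9a, 0.25 for Fzd3, 0.05 for Fzd7, -0.37 for Lgr4, -0.20 for Lrp5, -0.18 for Lrp6 and -0.24 for Tcf7l1.

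The replicate numbers share a label only: same-numbered arrays had a correlation of deviations of 0.0029. With a replicate block 2220 genes, 9 members (the 8 and Fzd1) and 15 other pathway genes were called. Dim signals limit the 26 members below the filter.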
